A study of Mus musculus with 8 samples.

Results

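The 5 genes described here encode the ligands BAFF (Tnfsf13b) and APRIL (Tnfsf13) and the receptors TACI (Tnfrsf13b), BAFF-R (Tnfrsf13c) and BCMA (Tnfrsf17). They were taken by name, all 5 were among the 17921 genes counted, and none was chosen on its measured level. BAFF and APRIL are TNF family cytokines. BAFF binds all of these receptors, APRIL binds TACI and BCMA, and BAFF-R is the receptor on which mature B cells depend for survival, while BCMA is a receptor of plasma cells. Myeloid cells are a known source of both ligands, and BAFF is known to be induced by interferons.

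Single cells were profiled from left lung grafts of male mice 1 month after orthotopic lung transplantation without immunosuppression. In B6→B6 grafts (n = 5 mice) wild-type C57BL/6 lungs were placed into C57BL/6 recipients, a syngeneic setting without rejection. In HLA→B6 grafts (n = 3 mice) the donor carried the human HLA-A2.1 transgene of the strain Tg(HLA-A2.1)1Enge/J on the C57BL/6 background and the recipient was again C57BL/6. These grafts are the study's model of bronchiolitis obliterans syndrome, and their donors and recipients differ at the transgene. The ages of the mice are not stated here. The HLA→B6 and B6→B6 grafts were compared to ask which cells carry the ligands and which carry the receptors in a rejecting and a non-rejecting lung.

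The 8 libraries held 20778 cells and 43747478 unique molecular identifiers (UMIs, each standing for one captured transcript), with 868 to 6544 cells and a median of 1356 to 1948 UMIs per cell in a graft. In 5 of 28 pairs of libraries more cell barcodes were shared than chance gives (adjusted p of the excess under 0.01). These pairs linked 4 libraries, HLA→B6 replicate 2 with the B6→B6 mice numbered 1 to 3. In these pairs 77.1 to 97.5% of the shared barcodes had the same deposited cell type in both libraries. It was 0 to 52.2% in the other pairs that shared any. The source of the sharing was not tested. Levels are CPM, the UMIs of a gene in the summed cells of a mouse scaled to a common total, and a mouse entered a cell type with at least 10 cells of it. The cells were read from the 3′ ends of transcripts, so that a count does not grow with the length of the gene and levels of the 5 genes are set side by side per UMI.

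All 5 genes were sparse. TACI had 1510 UMIs, BAFF-R 1338, BAFF 287, BCMA 53 and APRIL 26 in the whole series. Depth therefore limits what can be said of APRIL and BCMA. In GENCODE vM21 on GRCm38, Tnfsf13b lies at chr8:10006467-10039072 on the plus strand, Tnfrsf13b at chr11:61126755-61149372 (plus), Tnfrsf13c at chr15:82221743-82224369 (minus) and Tnfrsf17 at chr16:11313812-11320074 (plus). These 4 genes share no exon bases with another gene on their strand. Tnfsf13 lies at chr11:69682846-69685784 (minus) and shares 983 of its 1637 exon bases with Tnfsfm13, a read-through gene that joins it with Tnfsf12. Reads in the shared part cannot be given to either gene alone, so the 26 UMIs of Tnfsf13 are a count of the reads that could be assigned to it and its level is uncertain.

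The promoter windows of Tnfsf13b and Tnfrsf17 are shown because they hold, on one of the strands, the core letters of the interferon-stimulated response element (ISRE), which are GAAA, any 2 bases and GAAA again. The sequences are from RefSeq on GRCm38.p6, 5′ to 3′ on the plus strand, and capitals mark the match; all 5 genes were found in the promoter table.
Tnfsf13b, chr8:10006607-10006636: tacaaaaactGAAAGTGAAAtgcggaaggc
Tnfrsf17, chr16:11313698-11313727: aaataggtggTTTCTGTTTCaggaatagtt
The match lay 16 bases before the RefSeq start of Tnfsf13b at chr8:10006633, which is 166 bases downstream of the GENCODE start given above, so that it falls inside the GENCODE gene. That of Tnfrsf17, on the opposite strand, lay 101 bases before its RefSeq start at chr16:11313809. The letters occurred in 1131 of 32851 windows of 300 bases (3.44%), searched on both strands, and in 1 of the 2 windows of Tnfsf13b. The GAS letters TTCNNNGAA occurred in 8.30% of all windows and in none of the windows of the 5 genes. A match is a description of the letters and not a sign of binding.

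**Figure D1:**
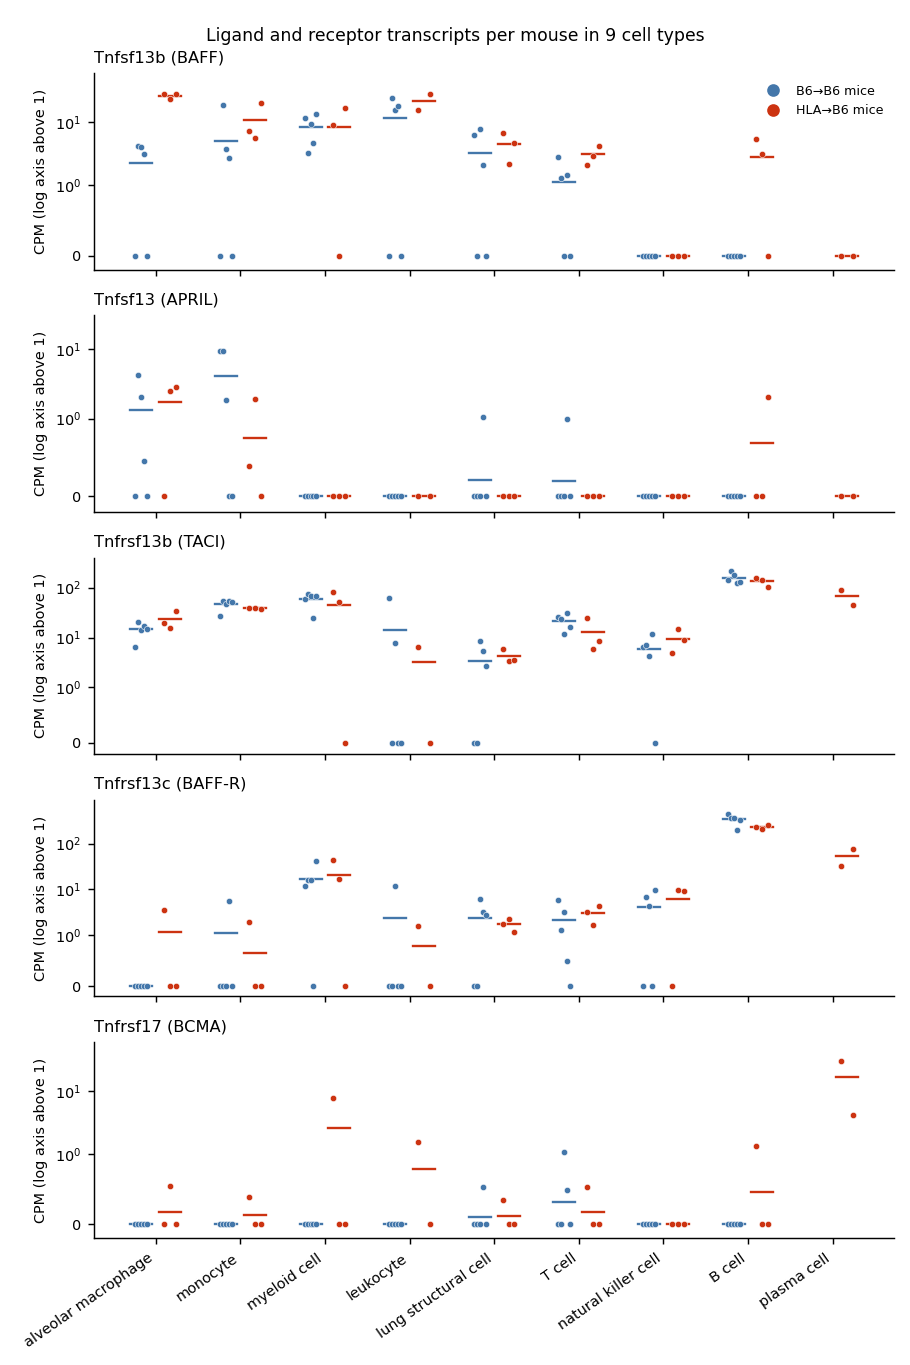
Level of each gene in each deposited cell type (CPM of the summed cells of a mouse); each point is one mouse with at least 10 cells of the type, with B6→B6 and HLA→B6 mice marked apart. In these totals, which include immunoglobulin UMIs, TACI and BAFF-R have their highest means in B cells (150 and 299 CPM), while without immunoglobulin genes TACI is higher in plasma cells (195 CPM, 2 mice) than in B cells (154 CPM); the points of BAFF in alveolar macrophages separate by group.

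In the cells deposited as alveolar macrophages, BAFF was detected at 2.28 ± 2.12 CPM (SD, n = 5) in B6→B6 grafts and at 26.6 ± 2.77 CPM (SD, n = 3) in HLA→B6 grafts. The B6→B6 mice gave 0, 2, 2, 7 and 0 UMIs in replicates 1 to 5, which is 0, 4.18, 4.07, 3.15 and 0 CPM. The HLA→B6 mice gave 40, 86 and 10 UMIs, which is 28.4, 23.4 and 28.0 CPM in replicates 1, 2 and 3. Every HLA→B6 value lay above every B6→B6 value. BAFF passed the test in edgeR, with a log2 fold change of 3.42 (SE 0.44, adjusted p = 0.0036), a 10.7-fold higher level. Of 5798 genes tested there, 12.3% were called in either direction, 6.36% were called higher in HLA→B6, and 5.14% were higher without overlap of the groups. BAFF ranked 15 among all tested genes by log2 fold change. It was the only one of the 5 genes that passed the filter on low counts in these cells, and it did so through the HLA→B6 mice alone. TACI, with 161 UMIs in these cells against 147 of BAFF, did not pass. Passing the filter is therefore no result about BAFF. Among the 19 of 21 alternative settings in which BAFF was fitted, its log2 fold change stayed between 3.23 and 3.84 and past the threshold. Within the linked libraries the level was 0 to 4.18 CPM in the B6→B6 mice against 23.4 CPM in the HLA→B6 mouse, and in the others it was 0 to 3.15 CPM against 28.0 to 28.4 CPM.

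**Figure D2:**
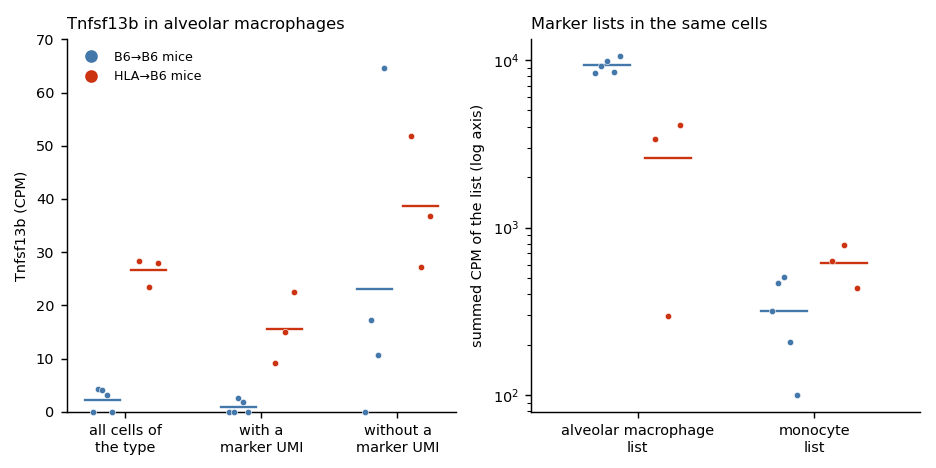
Tnfsf13b level in the cells deposited as alveolar macrophages (CPM of the summed cells), one point per mouse, for all of these cells and for those with and without a UMI of Marco, Chil3, Ear2 or Siglecf. In all of these cells the HLA→B6 mice lie between 23.4 and 28.4 CPM and the B6→B6 mice between 0 and 4.18 CPM. The groups overlap in the cells without a marker UMI, where the B6→B6 mice shown have 0 to 3 UMIs of BAFF each.

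The label alveolar macrophage did not cover the same markers in both groups. The summed level of the markers Marco, Chil3, Ear2 and Siglecf was 8321 to 10493 CPM in B6→B6 mice and 3373, 296 and 4099 CPM in the HLA→B6 mice, so that HLA→B6 replicate 2 held little of the marker RNA of its label. The monocyte markers Ly6c2, Ccr2, Csf1r and Fcgr4 summed to 101 to 509 CPM in B6→B6 and to 434 to 788 CPM in HLA→B6 mice. Marco, a scavenger receptor of alveolar macrophages, was lower in HLA→B6 (log2 fold change −3.68, edgeR adjusted p = 0.0042), and Ly6c2, a marker of inflammatory monocytes, was higher (3.67, edgeR adjusted p = 0.030). Of the 4 alveolar macrophage markers 2 were lower and 0 higher, and of the 4 monocyte markers 2 were higher and 0 lower. The neutrophil markers S100a8, S100a9 and Csf3r summed to 36.3 to 148 CPM in B6→B6 and to 523, 95.0 and 235 CPM in HLA→B6 mice, and 1 of the 3 was called higher. Among the plasma cell markers Jchain was higher (3.66, edgeR adjusted p = 0.024) and Xbp1 lower (−0.69, adjusted p = 0.030), and the epithelial marker Epcam was lower (−3.89, adjusted p = 0.0077). The cells deposited as monocytes also held the 4 alveolar macrophage markers, at 744 to 949 CPM in B6→B6 and 669 to 1446 CPM in HLA→B6 mice. A UMI of these markers therefore does not by itself set alveolar macrophages apart from monocytes. Within the alveolar macrophage label, cells with at least 1 UMI of these markers had 5 UMIs of BAFF in 1166 cells of B6→B6 grafts. In HLA→B6 grafts such cells had 29 in 450 cells. Their levels were 0, 0, 2.51, 1.84 and 0 CPM in B6→B6 and 9.08, 15.0 and 22.5 CPM in HLA→B6 mice, with no overlap of the groups. In these cells BAFF did not pass the filter on low counts, and without that filter its log2 fold change was 3.53 (SE 0.80, edgeR adjusted p = 0.0024). In cells without a marker UMI the levels overlapped. They were 0, 17.2, 10.7 and 64.5 CPM in B6→B6 replicates 1 to 4 against 51.9, 27.2 and 36.9 CPM in HLA→B6 mice. These levels rest on 0, 2, 1 and 3 UMIs of BAFF in the B6→B6 mice and on 33, 69 and 5 in the HLA→B6 mice. The 64.5 CPM came from 16 such cells, so the overlap rests on few counts. BAFF did not pass the filter on low counts in the cells without a marker UMI and was not tested there. B6→B6 replicate 5 had 4 such cells and was left out. This split was made after the data were seen. The cells without a marker UMI had a median of 527, 565, 893 and 2314.5 UMIs in B6→B6 replicates 1 to 4. In HLA→B6 mice they had a median of 3492, 6911.5 and 566. The cells with a marker UMI had a median of 2534, 2412, 2149, 3003 and 3879 UMIs in B6→B6 mice. In HLA→B6 mice these had a median of 2449.5, 8298 and 4080.5. How far the lower share of cells with alveolar macrophage markers enters the level of BAFF was not tested.

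Median depth in the alveolar macrophages ran from 803 to 3837 UMIs per cell in B6→B6 and from 897.5 to 7144 in HLA→B6 mice. BAFF was found in 11 of 1423 cells (0.773%) of B6→B6 and in 108 of 1071 cells (10.1%) of HLA→B6 grafts. After each cell was thinned to 1000 UMIs, for which 1128 of the 1423 and 882 of the 1071 cells were deep enough, the shares were 0.233% and 2.37%. BAFF was at 0 UMIs in natural killer cells, which allows a level of up to 1.85 CPM, and at 0 in plasma cells, which allows up to 2.17 CPM. These limits and all intervals given here cover counting error only. The natural killer cells numbered 1011, with a median of 1484 UMIs per cell.

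Over all cells of a graft BAFF was at 2.996, 4.17, 4.32, 2.59 and 0.461 CPM in the B6→B6 mice and at 8.28, 10.99 and 9.05 CPM in the HLA→B6 mice. The groups did not overlap, where 0.932% of genes were higher in HLA→B6 without overlap. The log2 fold change was 1.81 (SE 0.39, edgeR adjusted p = 0.25), and the exact permutation test over 56 splits gave p = 0.0357, the smallest it allows. None of 11584 genes, or 0%, was called there by edgeR, while 815 had an unadjusted p under 0.05 and DESeq2 called 119, with BAFF among them (adjusted p = 0.0026). In these sums a change in the number of cells of a type and in the RNA of each cell cannot be told apart.

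The cells deposited as alveolar macrophages held 136 of the 228 BAFF UMIs of HLA→B6 grafts and 11 of the 59 of B6→B6 grafts. Of these, 107 of the 136 and 6 of the 11 were in cells without a UMI of Marco, Chil3, Ear2 or Siglecf. As a share of the BAFF UMIs in each mouse, all cells under this label held 0, 16.7, 10.0, 33.3 and 0% in B6→B6 and 38.8, 85.1 and 41.7% in HLA→B6 mice. The difference of the means was 43.2 percentage points, with no overlap of the groups and an exact permutation p = 0.0357 (adjusted over the 8 cell types with a BAFF UMI 0.143). HLA→B6 replicate 2, the mouse with the least of the alveolar macrophage markers, had the highest share, and without it the difference was 28.3 percentage points. The share in myeloid cells was 32.5 ± 38.0% (SD, n = 5) in B6→B6, where B6→B6 replicate 5 had a single BAFF UMI in all, and 3.65 ± 3.43% (SD, n = 3) in HLA→B6 mice (exact permutation p = 0.0357, adjusted 0.143).

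**Figure D3:**
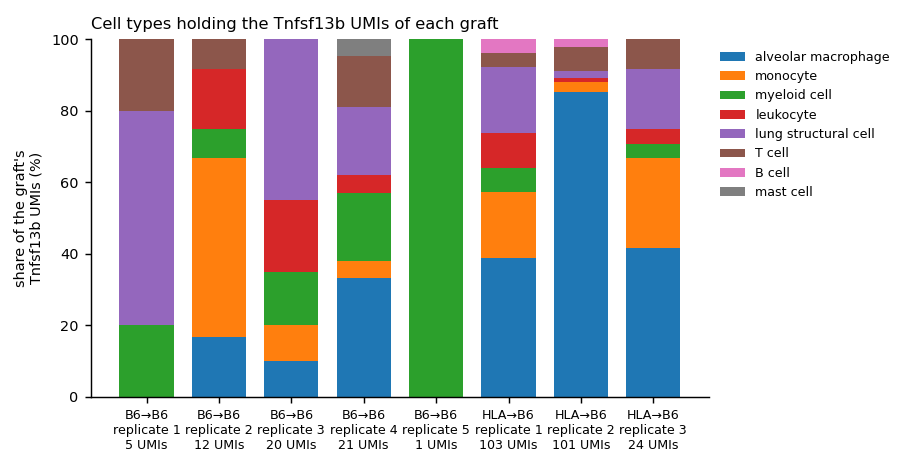
Share of the Tnfsf13b UMIs of each mouse (%) that fell in each deposited cell type, one bar per mouse. The cells deposited as alveolar macrophages hold 38.8 to 85.1% in HLA→B6 and 0 to 33.3% in B6→B6 mice.

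BAFF was also present in other myeloid cells at levels that did not set the groups apart. In the type deposited as leukocyte, whose neutrophil markers S100a8, S100a9 and Csf3r summed to 172763 CPM, BAFF was at 0, 24.5, 15.6, 18.3 and 0 CPM in B6→B6 mice and at 15.9 and 28.3 CPM in HLA→B6 replicates 1 and 2, while HLA→B6 replicate 3 had 5 such cells and was left out. In monocytes the levels were 0, 18.7, 3.73, 2.72 and 0 CPM in B6→B6 and 7.33, 5.66 and 20.3 CPM in HLA→B6 mice. The myeloid cells held the dendritic cell markers Flt3, Xcr1, Cd209a and Siglech at 744 CPM, but also T cell markers at 881 CPM, monocyte markers at 515 CPM and plasma cell markers at 444 CPM. Their BAFF levels ranged from 3.24 to 13.7 CPM in B6→B6 and from 0 to 16.8 CPM in HLA→B6. In all of these the groups overlapped, and BAFF passed the filter on low counts in none of them.

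The order of the mean levels differed between the groups. The totals of the structural cells include the red blood cell markers Hbb-bs, Hba-a1 and Alas2. These summed to 50774 to 526391.5 CPM in B6→B6 and to 57169 to 410476.5 CPM in HLA→B6 mice. The structural level of BAFF was not computed without them. In B6→B6 mice the leukocyte type came first with 11.7 ± 11.2 CPM, then myeloid cells with 8.59 ± 4.48 CPM, monocytes with 5.04 ± 7.84 CPM, structural cells with 3.25 ± 3.63 CPM, alveolar macrophages with 2.28 ± 2.12 CPM and T cells with 1.13 ± 1.19 CPM (SD, n = 5 each). In HLA→B6 mice the cells deposited as alveolar macrophages came first with 26.6 ± 2.77 CPM (SD, n = 3), then the leukocyte type with 22.1 ± 8.77 CPM (SD, n = 2), monocytes with 11.1 ± 8.001 CPM, myeloid cells with 8.60 ± 8.41 CPM, structural cells with 4.56 ± 2.26 CPM, T cells with 3.11 ± 1.07 CPM and B cells with 2.87 ± 2.75 CPM (SD, n = 3 each). The markers under the alveolar macrophage label differed between the groups, as given above. In the order of the means over all mice of both groups no neighbours were called (exact sign permutation, p adjusted per gene from 0.844 to 1). The pairs with mast cells or plasma cells could not be called, as the smallest p they allow is 0.25 or 0.5. That order also pools the groups, whose own orders differed. The log2 difference between HLA→B6 and B6→B6 on log2(CPM + 1) was 1.88 in the leukocyte type and 3.39 in alveolar macrophages. The difference between the types was −1.51 (exact permutation p = 0.286, adjusted 0.595 over the 5 genes). With 5 B6→B6 and 2 HLA→B6 mice the test had 21 splits, which allow no p under 0.05. It therefore could not be called and does not show that BAFF changed alike in these types.

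None of the 5 genes passed the filter on low counts in the structural cells, where 0.604% of 8109 tested genes were called. The structural cells had 41 BAFF UMIs, and 23 of them were in the cluster of fibroblasts and smooth muscle cells, which had 345 of the 5514 structural cells. Its level was 30.4 ± 26.4 CPM (SD, n = 6 mice). The mice with at least 10 of its cells had 1, 7 and 0 UMIs in B6→B6 replicates 1, 3 and 4, and 14, 0 and 1 UMIs in HLA→B6 replicates 1, 2 and 3. The 14 UMIs of HLA→B6 replicate 1 came from 6 cells. The other structural clusters had 7 UMIs or fewer each, and the 2364 MHC II+ endothelial cells had 4.

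APRIL had 14 UMIs in alveolar macrophages and 7 in monocytes, and the other types had 0 to 2. In alveolar macrophages the B6→B6 replicates held 0, 2, 1, 1 and 0 UMIs and the HLA→B6 mice 0, 9 and 1, a level of 0.450 to 4.18 CPM where it was found. In monocytes the counts were 1, 3, 1, 0 and 0 in B6→B6 and 1, 1 and 0 in HLA→B6 mice. The groups overlapped in both types (exact permutation p = 0.75 in alveolar macrophages and 0.571 in monocytes), and APRIL passed the filter on low counts in no cell type. At 26 UMIs a difference between the grafts was not detectable at this depth. Tnfsfm13, the gene that shares its exons, had 157 UMIs in alveolar macrophages and 38 in monocytes, and the antisense gene Tnfsf13os covers 221 of the exon bases of APRIL from the opposite strand. Myeloid cells had 0 APRIL UMIs, which allows a level of up to 0.979 CPM.

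Most BAFF-R transcripts of these lungs were in B cells. B cells, which had 86.8% of its UMIs (1162 of 1338), were at 299 ± 90.4 CPM (SD, n = 8 mice), and the next type with 8 mice, the myeloid cells, was at 18.1 ± 16.4 CPM. In the B cells the B6→B6 replicates had 451, 368, 355, 200 and 332 CPM and the HLA→B6 mice 233, 208 and 249 CPM. Only B6→B6 replicate 4 lay below the HLA→B6 mice. The log2 fold change was −0.52 (SE 0.19), with an unadjusted p of 0.0146 that did not hold over all genes in edgeR (adjusted p = 1.00). Of 6001 genes tested in B cells 0.117% were called.

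TACI was the more widely found receptor. In B cells it was at 144, 219, 183, 124 and 129 CPM in B6→B6 and at 155, 145 and 103 CPM in HLA→B6 mice, with a log2 fold change of −0.25 (SE 0.20, edgeR adjusted p = 1.00). B cells had 622 of its 1510 UMIs and plasma cells 110, and the other types held the rest. Myeloid cells had 53.5 ± 27.9 CPM, monocytes 43.8 ± 9.45 CPM, T cells 18.5 ± 9.24 CPM and alveolar macrophages 17.9 ± 7.68 CPM (SD, n = 8 each). Natural killer cells had 7.23 ± 4.54 CPM. In all 8 mice the monocytes were above the T cells, with an exact sign permutation p = 0.0078, the smallest it allows (adjusted 0.070 over the neighbours of TACI).

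TACI was not called between the grafts in any cell type where it was tested. In monocytes the B6→B6 replicates were at 27.6, 53.1, 46.6, 54.4 and 52.6 CPM and the HLA→B6 mice at 39.7, 39.6 and 37.2 CPM (log2 fold change −0.36, SE 0.27, edgeR adjusted p = 1.00), where 0.023% of genes were called. In T cells they were at 25.7, 23.6, 11.9, 31.7 and 16.1 CPM against 24.8, 5.95 and 8.48 CPM (log2 fold change −0.75, SE 0.46, edgeR adjusted p = 0.83), where 0.0698% of genes were called. In myeloid cells they were at 58.7, 74.5, 66.9, 24.9 and 68.4 CPM against 83.4, 51.4 and 0 CPM (log2 fold change 0.03, SE 0.50, edgeR adjusted p = 1.00), and none of the 4395 genes there (0%) was called by edgeR, with 215 at an unadjusted p under 0.05 and 25 called by DESeq2. The direction in myeloid cells turned in 5 of 18 alternatives. In alveolar macrophages TACI was at 6.59, 20.9, 14.2, 17.1 and 15.1 CPM in B6→B6 and at 19.9, 15.8 and 33.6 CPM in HLA→B6 mice and did not pass the filter.

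The balance of the 2 receptors turned between lineages. In B cells there were 1162 BAFF-R UMIs to 622 of TACI, and BAFF-R was above TACI in 8 of 8 mice. In T cells there were 173 UMIs of TACI to 19 of BAFF-R, in monocytes 209 to 7 and in alveolar macrophages 161 to 5, with TACI above BAFF-R in 8 of 8 mice in each type. In myeloid cells there were 171 to 58 UMIs, and TACI was above BAFF-R in 7 of 8 mice. Of these UMIs 96 of TACI and 44 of BAFF-R were from HLA→B6 grafts, where the myeloid cells of replicate 1 also held B cell and plasma cell markers. In natural killer cells there were 12 UMIs of TACI to 6 of BAFF-R, and in structural cells 44 to 22. The ratio of the pooled UMIs ran from 1.87 of BAFF-R to TACI in B cells to 32.2 of TACI to BAFF-R in alveolar macrophages.

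With each cell thinned to 1000 UMIs, a BAFF-R UMI was found in 23.6% of B cells, in 0.242% of T cells and in 0.0739% of alveolar macrophages, and a TACI UMI in 14.3% of B cells, 5.69% of myeloid cells, 4.32% of monocytes, 1.77% of T cells and 1.77% of alveolar macrophages. Natural killer cells, which are not known to carry TACI, were at 0.707%, with a median of 1484 UMIs per cell against 1597.5 in B cells and 1648 in T cells. In the unthinned cells the share in B cells was 34.2% for BAFF-R and 22.4% for TACI. Both receptors were found in 225 of 2286 B cells.

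Of the B cell clusters, cluster 0 (1895 cells) was at 303 ± 95.6 CPM of BAFF-R and 156 ± 40.5 CPM of TACI (SD, n = 8 mice), and neither gene was called between the grafts (edgeR adjusted p = 1.00 for both; 0% of 4871 genes called, 154 at an unadjusted p under 0.05, 1 by DESeq2). Cluster 1 (210 cells) had at least 10 cells in 2 mice of each group. There BAFF-R was at 503 and 489 CPM in B6→B6 replicates 2 and 3 and at 228 and 176 CPM in HLA→B6 replicates 1 and 2. The groups did not overlap, as for 21% of the genes in that direction, and the log2 fold change was −1.26 (SE 0.26, edgeR adjusted p = 0.13). None of 2206 genes (0%) was called there by edgeR, with 220 at an unadjusted p under 0.05 and 3 called by DESeq2. BAFF-R passed the threshold in 3 of 13 alternatives, and each of these rested on a lone mouse in 1 group. Dropping B6→B6 replicate 3 gave a log2 fold change of −1.29, while dropping HLA→B6 replicate 1 gave −1.45. The term for the linked libraries gave −1.47. In this cluster only HLA→B6 replicate 1 lies outside the linked libraries at the cutoff used, so that term takes up its level. HLA→B6 replicate 2 is then left alone against the B6→B6 mice, so the −1.47 and −1.45 are not separate checks. A lone mouse is assumed to vary like the others, which these fits cannot test. TACI in the same cluster was at 132 and 201 CPM against 164 and 132 CPM.

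**Figure D4:**
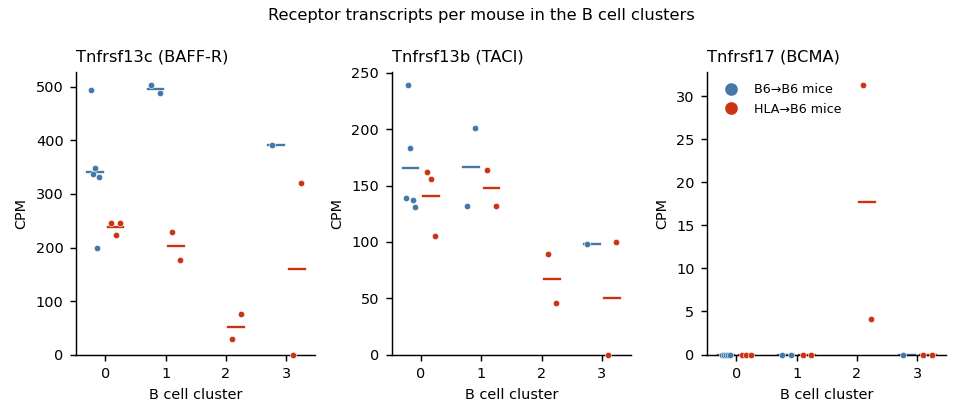
Level of the receptors (CPM) in the B cell clusters, one point per mouse with at least 10 cells of the cluster, with B6→B6 and HLA→B6 mice marked apart. BAFF-R and TACI have points in all 4 clusters, with BAFF-R at 29.3 and 74.98 CPM in the mice of cluster 2, and BCMA is found in cluster 2 alone among the clusters.

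Most BCMA UMIs were in plasma cells. The cells deposited as plasma cells, with the markers Jchain, Xbp1, Sdc1 and Prdm1 at 38679 CPM, had 37 of its 53 UMIs. These cells were unevenly spread over the grafts, with 7, 7, 7, 1 and 0 of them in the B6→B6 mice, in order of replicate, and 121, 27 and 2 in the HLA→B6 mice. HLA→B6 replicate 1 gave 32 BCMA UMIs from 121 cells, or 29.8 CPM, HLA→B6 replicate 2 gave 1 UMI from 27 cells, or 4.17 CPM, and the only plasma cell of B6→B6 replicate 4 gave 4 UMIs. Thus 1 graft held most of the counts. No test between the groups could be made for want of B6→B6 mice with at least 10 plasma cells. With immunoglobulin genes left out of the totals, BCMA was at 87.1 and 11.2 CPM in these 2 mice, a mean of 49.1 CPM in place of 16.97 CPM.

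The plasma cells also held the other receptors. TACI was at 91.2 and 45.8 CPM and BAFF-R at 32.6 and 74.98 CPM in HLA→B6 replicates 1 and 2. Without immunoglobulin genes TACI was at 267 and 123 CPM and BAFF-R at 95.2 and 201 CPM. The mean of TACI in plasma cells was then 195 CPM in place of 68.5 CPM, above the 154 CPM of B cells, and that of BAFF-R 148 CPM in place of 53.8 CPM, below the 308 CPM of B cells. Of 172 plasma cells, 62 had a TACI UMI, 44 a BAFF-R UMI and 26 a BCMA UMI. No BCMA UMI was found in B cell clusters 0, 1 and 3, which allows up to 0.941, 3.93 and 34.7 CPM. Myeloid cells had 6 BCMA UMIs, all of them in 2 cells of HLA→B6 replicate 1, where the plasma cell markers summed to 1349 CPM and the B cell markers to 407 CPM, the highest of the 8 mice. Their part in those 6 UMIs was not tested.

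Outside the 5 genes, 57 genes of 6 lists of the same pathways were examined: noncanonical and classical NF-kB signalling, survival and B cell targets, processing and coreceptors, inducing signals, and other TNF family ligands. In alveolar macrophages 32 of them were tested, and 6 were called higher and 0 lower. Of all genes tested there, 12.3% were called in either direction and 6.36% were called higher. In all cells together, in the other cell types and in the B cell clusters edgeR called none, with 0 to 8 of them at an unadjusted p under 0.05 in a comparison, while DESeq2 called 4 in T cells and 1 in monocytes. Of the 7 inducing signals, 3 were higher and 0 lower in HLA→B6, with a median log2 fold change of 1.05 beside −0.03 for all 5798 genes tested. Irf1, an interferon-induced transcription factor, rose by 1.37 (SE 0.38, edgeR adjusted p = 0.038), the interferon receptor chains Ifnar2 by 1.13 (SE 0.20, adjusted p = 0.0098) and Ifngr2 by 1.05 (SE 0.23, adjusted p = 0.018) on the log2 scale. Irf1 was past the threshold in 10 of 20 alternatives, Ifngr2 in 17 of 21 and Ifnar2 in 20 of 21.

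Of 5 tested noncanonical NF-kB genes, 1 was called: Relb, the transcription factor of that branch, was at 2.51 to 15.7 CPM in B6→B6 and at 25.6, 31.0 and 33.6 CPM in HLA→B6 mice (log2 fold change 1.58, SE 0.36, edgeR adjusted p = 0.020). Of 6 processing and coreceptor genes, 1 was called: Sdc4, a heparan sulfate proteoglycan, was at 0 to 16.7 CPM in B6→B6 and at 41.9, 37.3 and 30.8 CPM in HLA→B6 mice (log2 fold change 3.004, SE 0.50, edgeR adjusted p = 0.0073). The 1 tested gene among the other TNF ligands was Tnfsf12 (TWEAK), the neighbour of Tnfsf13, at 40.2 to 68.9 CPM in B6→B6 and at 76.0, 118 and 112 CPM in HLA→B6 mice (log2 fold change 1.21, SE 0.24, edgeR adjusted p = 0.013), and it shares 731 exon bases with Tnfsfm13. Of 6 classical NF-kB genes edgeR and DESeq2 each called 0, with 0 at an unadjusted p under 0.05 and a median of −0.13 on the log2 scale. Of 7 survival and B cell target genes each tool called 0, with 2 at an unadjusted p under 0.05 and a median of −0.18. In cells that held a marker UMI of alveolar macrophages, Ifnar2 (1.15, edgeR adjusted p = 0.013) and Ifngr2 (1.06, adjusted p = 0.028) were called and Irf1 was not (1.31, adjusted p = 0.091).

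**Figure D5:**
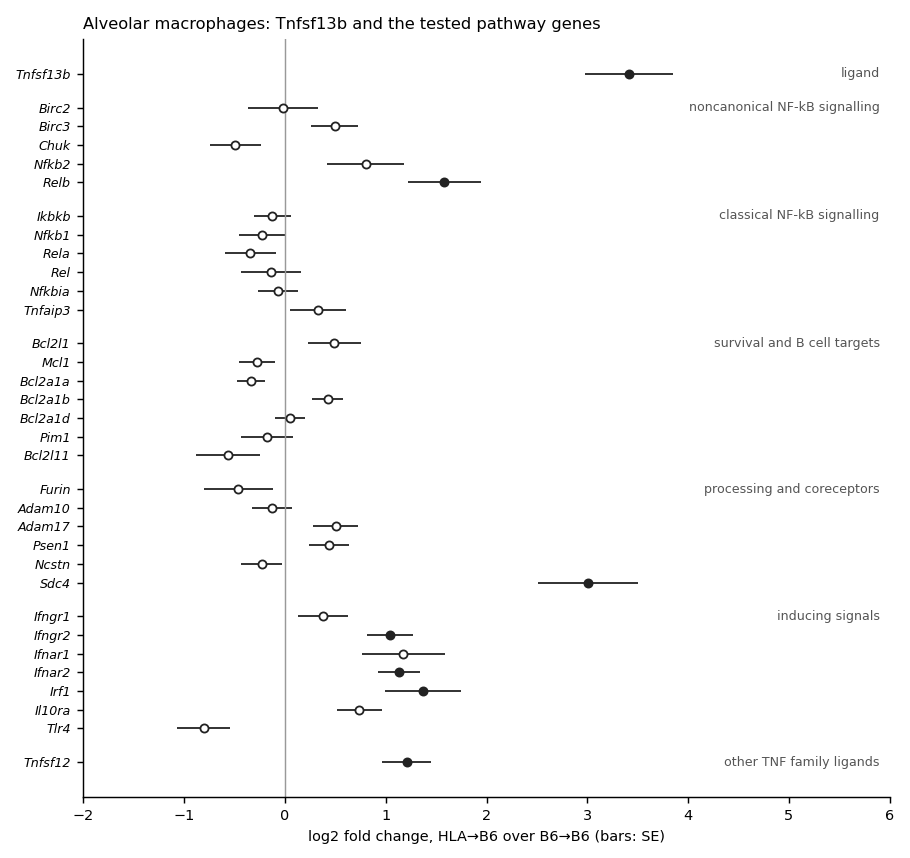
Log2 fold change of HLA→B6 over B6→B6 in alveolar macrophages (edgeR, bars give SE) for Tnfsf13b and the tested genes of the 6 lists; filled points passed an adjusted p of 0.05. Tnfsf13b lies at 3.42, Sdc4 at 3.004 and the other called genes between 1.05 and 1.58.

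The pattern of a gene over the 11 deposited cell types was compared with that of 12985 others by Pearson's correlation of log2(mean CPM + 1), as a description over types that share their libraries. The nearest to BAFF were B4galt6 (0.965), Card9 (0.960) and Fam217b (0.957). The nearest to APRIL were Gdf3 (0.971), Cyp2ab1 (0.967) and Nxpe5 (0.965). The pattern of APRIL rests on 26 UMIs, with a mean of 0 CPM in the leukocyte type and in mast, myeloid, natural killer and plasma cells. Type 2 pneumocytes entered with 1 mouse and plasma cells with 2. BAFF-R lay nearest to Pou2af1 (0.975), Iglc3 (0.964) and Fcrla (0.960), and BCMA nearest to Gm40304 (0.996), Bcat1 (0.992) and Prg2 (0.985). TACI had the loosest matches, with C130026I21Rik at 0.920, Gm45894 at 0.886 and A530040E14Rik at 0.884.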

How the data were processed

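Left lung grafts of 5 B6→B6 and 3 HLA→B6 mice were profiled on the 10x platform, and the authors deposited UMI counts, in whole numbers, per gene and cell with their cell types and clusters. Per the labels, the authors processed reads with Cell Ranger and Seurat on mm10 (GRCm38), with no versions given. No source used here says whether the counts precede the SoupX correction. The 5 genes and the lists were chosen with earlier results of these data known. One gene of the lists is not reported here.

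Counts were summed per mouse and cell type or cluster (at least 10 cells in a mouse, 2 mice in a group) and tested with edgeR 4.0.16 (quasi-likelihood, TMM, filterByExpr with a minimum count of 10, limma 3.58.1, R 4.3.3), with Benjamini-Hochberg adjustment over all genes tested and a threshold of 0.05. SE is the absolute log2 fold change divided by the square root of F. Genes under the filter, and shares of UMIs, were compared by two-sided exact permutation over the splits of the mice, 56 where all 8 mice entered and fewer elsewhere. The mouse is the replicate. The names of the cells number the HLA→B6 mice 2, 3 and 5, and the table of cells numbers the same mice 1, 2 and 3, which is used throughout. The procedure was tested on simulated data. Alternatives were DESeq2 1.42.0, no filter, 500 UMIs per cell, no doublets (Scrublet through scanpy 1.11.5, 256 cells), no immunoglobulin genes, no shared barcodes (793 cells over all 8 libraries left out), a replicate block, a linked-library term, other cell minimums, and each mouse left out. The split of alveolar macrophages by marker UMI was chosen after seeing the data. Named were the 5 genes, list genes called in a comparison (all if 5 or fewer, else the 3 largest rises and falls), the 3 most alike genes of each member and the marker genes. Ifnar2, Ifngr2 and Tnfsf12 fall outside that rule and were added after their values were seen. Totals per graft were 1669076 to 12445769 UMIs.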

Additional observations from a re-analysis of the deposited data

How the results depend on the processing

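The call of Tnfsf13b in alveolar macrophages held in all 19 of 21 alternatives in which it could be fitted. It did not pass the filter on low counts in cells with or without a marker UMI. Only the cells with a marker UMI were also fitted without that filter, so it was not tested in those without one. Over all cells its change was not called by edgeR but passed in DESeq2 (1.81, adjusted p = 0.0026). Of the log2 changes of TACI and BAFF-R in B cells, none passed in any of 18 alternatives each. The number of genes called in alveolar macrophages was 712; it was 1083 without the filter, 253 with the replicate block, 1253 with the term for linked libraries, 469 in cells with a marker UMI, 6 in cells without one, and 180 to 829 with a mouse left out. Leaving out HLA→B6 replicate 2 gave 180, B6→B6 replicate 4 gave 273 and B6→B6 replicate 1 gave 388. The replicate numbers are only names, and the names of the cells number the HLA→B6 mice otherwise. Same-numbered mice by the table of cells correlated at 0.345, 0.414 and −0.157. Pairs with other numbers ran from −0.300 to 0.470. The last, the highest of all, was B6→B6 replicate 3 with HLA→B6 replicate 1. The replicate block gave Tnfsf13b 3.26 (edgeR adjusted p = 0.0275). Without immunoglobulin genes mean levels in plasma cells moved to 49.1 CPM for BCMA, 195 CPM for TACI and 148 CPM for BAFF-R. Shares of cells with a UMI moved with depth: BAFF-R in B cells 34.2% unthinned, 12.9% at 500 and 36.4% at 2000 UMIs; TACI 22.4, 7.396 and 24.6%; BAFF in alveolar macrophages 4.77, 0.692 and 2.47%. TACI in B cell cluster 1 turned to 0.049 without the filter, 0.19 without B6→B6 replicate 3 and 0.07 without HLA→B6 replicate 2 (−0.36 to 0.19 over the left-out mice), and in myeloid cells to −0.11 with DESeq2, −0.015 without shared barcodes, −0.53 with the replicate block, −0.18 without B6→B6 replicate 4 and −0.64 without HLA→B6 replicate 1 (−0.64 to 0.25 over the left-out mice). Ifnar2 turned to −0.18 in alveolar macrophages without a marker UMI. The causes were not tested.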
